A study of Arabidopsis thaliana with 9 samples.

Results

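Of the 22810 probe sets on the array, 5 that stand for enzymes of monolignol and lignan metabolism were followed in Arabidopsis thaliana leaves of 3 genotypes. They are 248639_at (HCT, AT5G48930), 261899_at (CCR2, AT1G80820), 259975_at (AT1G76470, a cinnamoyl-CoA reductase-like gene), 264433_at (BGLU45, AT1G61810) and 252939_at (AT4G39230, a phenylcoumaran benzylic ether reductase-like gene). They were chosen from the measured levels of these same arrays, so their differences between genotypes are given as a description, and nothing rests on whether they pass a threshold. By their locus codes 3 lie on chromosome 1, 1 on chromosome 4 and 1 on chromosome 5.

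The groups were cat2 rbohF, which carries mutations in the catalase gene CAT2 and the NADPH oxidase gene RBOHF, cat2 rbohD, mutated in CAT2 and the NADPH oxidase gene RBOHD, and cat2, mutated in CAT2 alone. The titles write the lines as cat2-2 atrbohF, cat2-2 atrbohD and cat2-2, and the background is Columbia-0. Each genotype had 3 arrays, each of RNA from a pool of leaves of at least 8 plants aged 3 weeks, which grew with 16 h of light at 200 umol m-2 s-1 and 8 h of darkness. Wild-type leaves were not analysed here, and all 3 genotypes carry the mutation in CAT2, the catalase that removes most photorespiratory hydrogen peroxide in leaves. The comparisons address what loss of either oxidase changes in a cat2 leaf.

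Monolignols are the alcohols from which plants build lignin, the polymer that stiffens and waterproofs cell walls. HCT moves p-coumaroyl groups from CoA to shikimate, cinnamoyl-CoA reductases turn the CoA esters into aldehydes, and dehydrogenases reduce these to the alcohols. The alcohols can be stored as glucosides that beta-glucosidases open again, polymerised by peroxidases and laccases, or coupled into lignans and neolignans, on which reductases of the phenylcoumaran benzylic ether family act. CCR1 is the Arabidopsis isoform tied to lignin of growing stems, while CCR2 is known from responses to pathogens.

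Values are log2 expression values, so that a difference of 1 is a 2-fold change. A probe set was tested where its third-highest value on the 9 arrays exceeded 5.14, the 40th percentile over the table, and 13888 passed, the 5 among them. Because the annotation used here names no probe set for the mutated genes, the genotypes were not checked by their own transcripts. On the first principal component (49.0% of the variance) the cat2 rbohF arrays scored 14.4 to 26.2, the cat2 rbohD arrays -10.7 to 10.4 and the cat2 arrays -24.4 to -15.1. The high cat2 rbohD score was that of replicate 3. No cat2 rbohD array correlated best with its own group: replicate 3 had a mean correlation of 0.985 with cat2 rbohF and 0.980 with the other cat2 rbohD arrays, while replicates 1 and 2 had 0.9821 and 0.985 with the other cat2 rbohD arrays and 0.9823 and 0.990 with cat2.

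HCT, the transferase at the entry to the monolignol branch, differed least of the 5 from cat2 in each double mutant. Its log2 level was 10.17, 10.32 and 10.41 in cat2 rbohF, 10.47, 10.26 and 10.54 in cat2 rbohD, and 10.42, 10.42 and 10.63 in cat2. The cat2 rbohF arrays lay under the cat2 arrays by a gap of only 0.01, and the cat2 rbohD values overlapped both other groups. The log2 fold change against cat2 was -0.19 ± 0.10 (SE) in cat2 rbohF and -0.07 ± 0.10 in cat2 rbohD. HCT thus stood at 87.7% and 95.4% of the cat2 level. In bulk leaf RNA, fewer cells of a type and less RNA per cell cannot be told apart, here or for any gene that follows.

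CCR2, the cinnamoyl-CoA reductase linked to defence, was lower than in cat2 in both double mutants, by similar amounts. Its log2 level was 5.44, 5.35 and 5.80 in cat2 rbohF, 5.73, 5.43 and 5.72 in cat2 rbohD, and 6.81, 6.83 and 6.60 in cat2. Neither double mutant overlapped cat2, with a gap of 0.79 for cat2 rbohF and 0.86 for cat2 rbohD, whereas the double mutants overlapped each other. CCR2 stood at 43.1% of the cat2 level in cat2 rbohF and at 46.1% in cat2 rbohD, log2 fold changes of -1.21 ± 0.13 and -1.12 ± 0.13 (SE). Between cat2 rbohF and cat2 rbohD the difference was -0.10 ± 0.13 with all arrays, and it ranged from -0.23 without replicate 3 of cat2 rbohF to -0.01 without replicate 2 of cat2 rbohF.

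AT1G76470, the cinnamoyl-CoA reductase-like gene, was lowest in cat2 rbohF and intermediate in cat2 rbohD. Its log2 level was 5.26, 5.10 and 5.09 in cat2 rbohF, 5.94, 6.10 and 6.34 in cat2 rbohD, and 7.66, 7.32 and 7.48 in cat2. No array of any genotype overlapped another genotype, so that the values formed 3 separate steps. The gene stood at 19.8% of the cat2 level in cat2 rbohF and at 39.0% in cat2 rbohD, log2 fold changes of -2.34 ± 0.12 and -1.36 ± 0.12 (SE). Against cat2 rbohD, cat2 rbohF was at -0.98 ± 0.12. In cat2 rbohF 2 of the 3 arrays were below the filter value of 5.14.

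**Figure D1:**
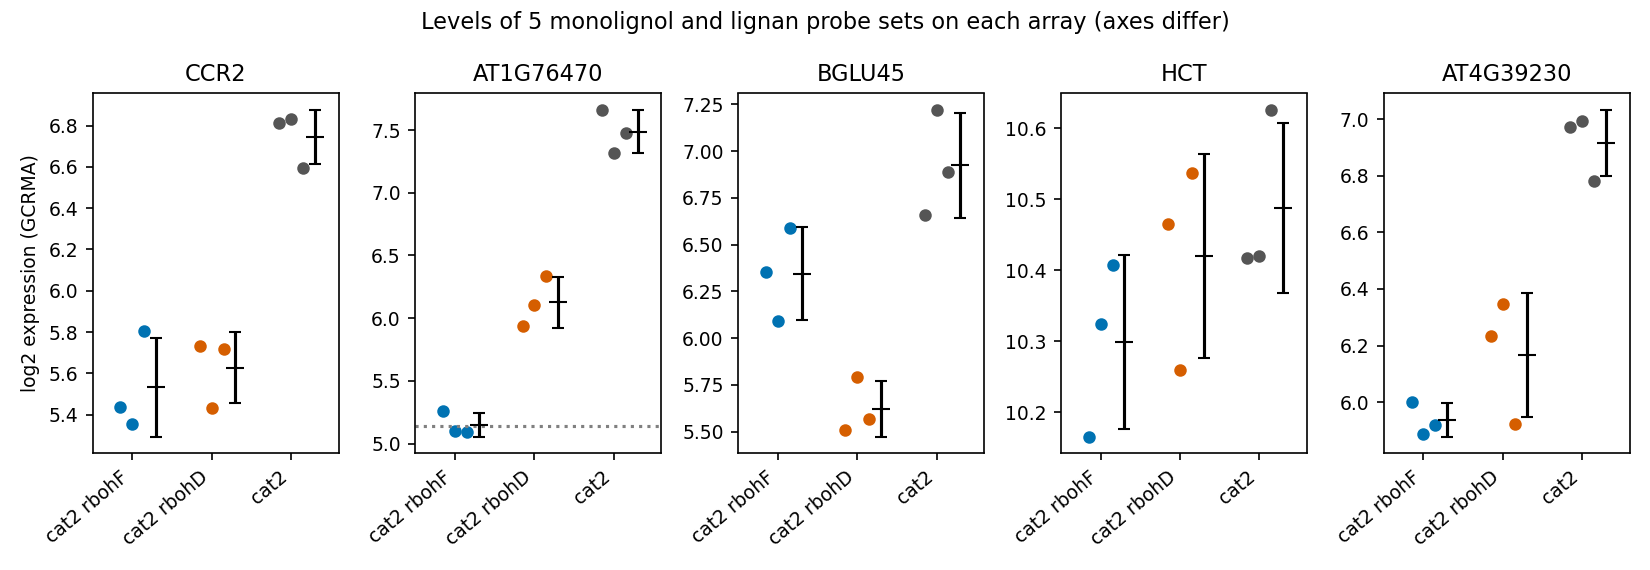
Log2 expression of the 5 probe sets on each array, with cat2 rbohF, cat2 rbohD and cat2 from left to right, points for replicates 1 to 3 and black bars for the mean ± SD (n = 3). The vertical axes differ between panels, and a dotted line, drawn in the panel of AT1G76470 alone, marks the filter value of 5.14. CCR2 and AT4G39230 were low in both double mutants, AT1G76470 was lowest in cat2 rbohF, and BGLU45 was lowest in cat2 rbohD. HCT lay between 10.17 and 10.63.

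BGLU45, a beta-glucosidase that releases monolignols from their glucosides, ran in the other order. Its log2 level was 6.35, 6.09 and 6.59 in cat2 rbohF, 5.51, 5.79 and 5.57 in cat2 rbohD, and 6.66, 7.22 and 6.89 in cat2. The 3 genotypes did not overlap, but the highest cat2 rbohF array came within 0.07 of the lowest cat2 array. BGLU45 stood at 67.0% of the cat2 level in cat2 rbohF and at 40.6% in cat2 rbohD, log2 fold changes of -0.58 ± 0.16 and -1.30 ± 0.16 (SE). It was the only one of the 5 with a higher level in cat2 rbohF than in cat2 rbohD, by 0.72 ± 0.16 on the log2 scale, with a gap of 0.30 between the nearest arrays. Leaving out single arrays moved the log2 fold change in cat2 rbohF between -0.71 and -0.43.

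AT4G39230, of the reductase family that acts on dimers of coniferyl alcohol, resembled CCR2. Its log2 level was 6.0, 5.89 and 5.92 in cat2 rbohF, 6.23, 6.35 and 5.92 in cat2 rbohD, and 6.97, 6.99 and 6.78 in cat2. Both double mutants lay under cat2 without overlap, and replicate 3 of cat2 rbohD lay among the cat2 rbohF arrays while its replicates 1 and 2 lay above them. The gene stood at 50.8% of the cat2 level in cat2 rbohF and at 59.5% in cat2 rbohD, log2 fold changes of -0.98 ± 0.11 and -0.75 ± 0.11 (SE). The difference of cat2 rbohF from cat2 rbohD was -0.23 ± 0.11 with all arrays, -0.35 without replicate 3 of cat2 rbohD and -0.14 without its replicate 2.

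**Figure D2:**
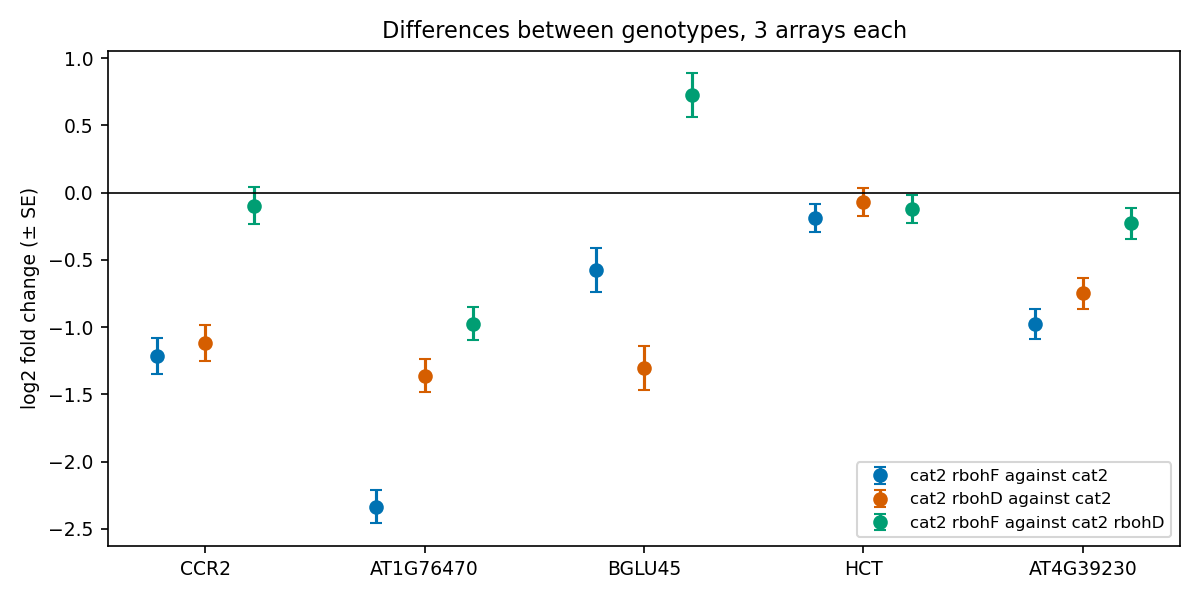
Log2 fold change (± SE) of each of the 5 probe sets in the 3 comparisons of genotypes, with 3 arrays per genotype. AT1G76470 is the most negative at -2.34 in cat2 rbohF against cat2, HCT lies close to zero in all comparisons, and only BGLU45 is above zero, at 0.72, in cat2 rbohF against cat2 rbohD.

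Against cat2, 4 of the 5 passed a limma adjusted p under 0.05 as lower in cat2 rbohF, where 9.89% of all tested probe sets did. In cat2 rbohD the same 4 passed as lower, where 0.187% did, and HCT passed in neither. Nothing is read from these counts, since the 5 were chosen from these values and both comparisons use the same cat2 arrays. The median log2 fold change of the 5 was -0.98 in cat2 rbohF and -1.12 in cat2 rbohD, beside 0.0076 and -0.0046 over all tested probe sets. All 5 lay under cat2 without overlap in cat2 rbohF, as did 19.8% of probe sets, and 4 of 5 did in cat2 rbohD, as did 7.24%.

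Between the double mutants, AT1G76470 passed as lower in cat2 rbohF, where 1.06% of probe sets did, and none of the 5 passed as higher, where 0.864% did. AT1G76470 was lower without overlap (13.4% of probe sets) and BGLU45 higher without overlap (12.5%), while CCR2, HCT and AT4G39230 overlapped. Among the 13888 log2 fold changes ranked from the lowest, AT1G76470 was at 5 in cat2 rbohF and 15 in cat2 rbohD, CCR2 at 146 and 35, and AT4G39230 at 275 and 115. BGLU45 was at 814 in cat2 rbohF and 19 in cat2 rbohD, and HCT at 2941 and 4569.

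Some of these calls changed when a single array was left out. That array could also be one of the genotype outside the comparison, which leaves the fold change as it was. The chosen genes were picked from these same values, so a call kept, lost or gained is a description and tests none of them. Nothing is read from these changes beyond how the calls depend on arrays and settings. In cat2 rbohD the count of 4 became 1, AT1G76470, without replicate 2 or 3 of cat2 or replicate 1 of cat2 rbohD. It became 2, BGLU45 and AT1G76470, without replicate 1 of cat2. Over all probe sets, the count called there was 29 with all arrays, 7 in each of the former cases and 20 in the latter. AT4G39230 also lost its call there without any 1 cat2 rbohF array, under median centring, under weighting of the arrays, and in a fit of the 6 cat2 rbohD and cat2 arrays alone. In cat2 rbohF the 4 became 3, through BGLU45, without replicate 2 or 3 of cat2 or replicate 1 or 2 of cat2 rbohF. The count was also 3 without a filter and with the replicate block. Over all probe sets, 2273 were called there with all arrays, and 1080, 1404, 817 and 1839 without these arrays, in that order. Without a filter 2096 were called, and with the replicate block 2300. Between the double mutants AT1G76470 no longer passed without replicate 2 of cat2 rbohD or replicate 1 or 3 of cat2 rbohF. Nor did it pass when the 6 arrays of the double mutants were fitted alone. Over all probe sets, 267 were called there with all arrays, and 3, 1, 8 and 2 in these fits, in that order. BGLU45 passed there as higher under weighting of the arrays and without replicate 2 of cat2 rbohF, with 703 and 262 probe sets called.

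**Figure D3:**
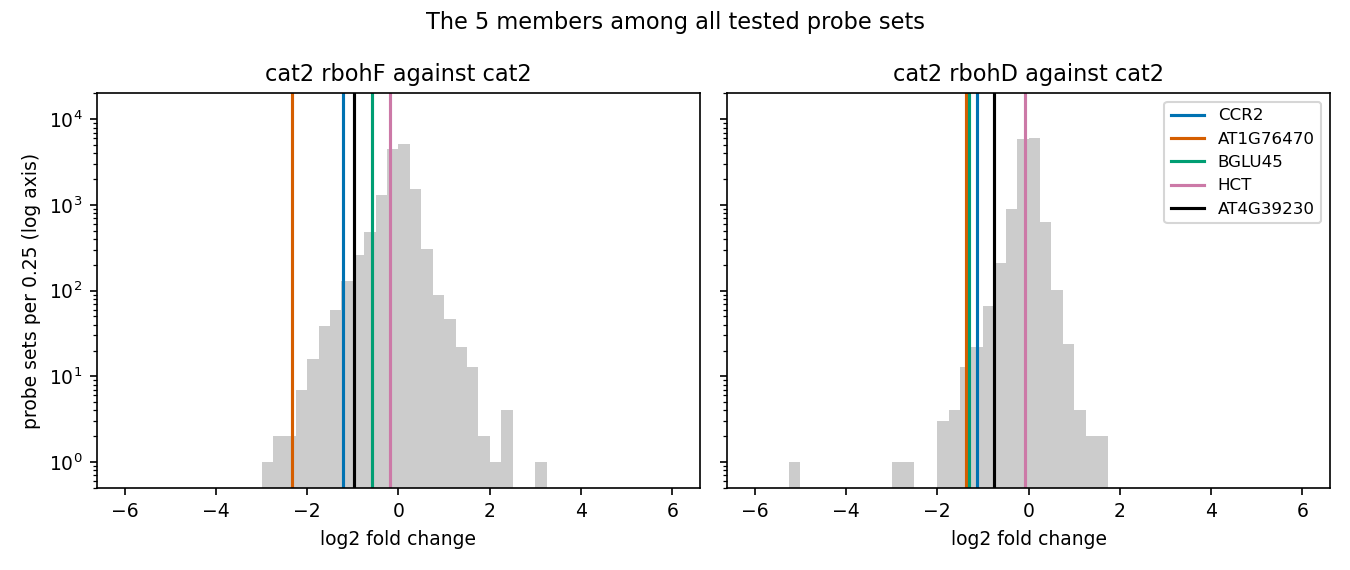
Numbers of probe sets (log axis) by log2 fold change in bins of 0.25, over the 13888 tested, in cat2 rbohF and in cat2 rbohD, each against cat2, with a vertical line for each of the 5. HCT stands in the bulk of both histograms, and BGLU45 stands farther out in cat2 rbohD (-1.30) than in cat2 rbohF (-0.58).

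With the genotype means removed, the 5 did not all vary together from array to array. Over the 9 arrays, the Pearson correlations of the 10 pairs then ran from -0.82, between HCT and AT4G39230, to 0.37, between CCR2 and HCT. CCR2 and AT4G39230, whose genotype means run alike, had -0.13. These points share arrays and normalization, and the correlations are a description.

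Other genes of the pathway came from 9 lists of 115 loci, of which 42 had a named probe set and 26 passed the filter, 21 of them besides the 5. No general phenylpropanoid enzyme (of 9 loci) and no lignin regulator (of 20) was named, and of 17 monolignol synthesis genes only HCT and CCR2 were, so the others were not analysed here. In cat2 rbohF, 5 of the 21 fell and 2 rose (limma, adjusted p under 0.05), where 9.89% and 6.47% of all tested probe sets did. In cat2 rbohD 0 of the 21 passed with limma, and 4 had an unadjusted p under 0.05, as did 10.8% of all tested probe sets. The median log2 fold change of the 21 was -0.12 in cat2 rbohF and -0.06 in cat2 rbohD.

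Of the 4 other genes tested on the list of cinnamoyl-CoA reductase-like genes, AT5G14700 fell by 0.51 ± 0.10 (SE) on the log2 scale in cat2 rbohF (limma adjusted p = 0.0115). Its level was 6.39, 6.49 and 6.42 in cat2 rbohF, 6.39, 6.41 and 6.61 in cat2 rbohD, and 7.13, 6.93 and 6.78 in cat2. Both double mutants lay under cat2 without overlap, but cat2 rbohD did not pass (-0.48, limma adjusted p = 0.134), and the call in cat2 rbohF was lost when its replicate 1 was left out (limma adjusted p = 0.0551). AT5G58490 was at 0.31 in cat2 rbohF and did not pass (limma adjusted p = 0.0609), but blocking on the replicate number brought it past the threshold (limma adjusted p = 0.0449), as did the stricter filter, median centring, weighting of the arrays and leaving out replicate 2 of cat2 rbohF (adjusted p from 0.0408 to 0.0478). AT2G02400 and AT4G30470 were at 0.16 and -0.18 and did not pass. On the list of lignan and phenylcoumaran reductases, AT1G75280 and AT4G34540 were at -0.13 and 0.08 in cat2 rbohF and at 0.21 and 0.03 in cat2 rbohD, and neither passed.

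UGT72E2, a glucosyltransferase that makes monolignol glucosides, fell by 0.53 ± 0.11 (SE) on the log2 scale in cat2 rbohF (limma adjusted p = 0.0136). Its level was 5.13, 5.34 and 5.23 in cat2 rbohF, 5.41, 5.67 and 5.76 in cat2 rbohD, and 5.63, 5.90 and 5.76 in cat2. In cat2 rbohD it overlapped cat2 and did not pass (-0.15, limma adjusted p = 0.664). Leaving out replicate 2 of cat2 or replicate 1 of cat2 rbohF ended the call (limma adjusted p = 0.0554 and 0.0642). Replicate 1 of cat2 rbohF was just below the filter value of 5.14. The glucosyltransferases UGT72E1 and UGT72B1 were at -0.12 and 0.02 and did not pass. BGLU46, the beta-glucosidase gene beside BGLU45, had 5.19, 4.71 and 5.17 in cat2 rbohF, 4.60, 4.56 and 5.39 in cat2 rbohD, and 5.14, 5.15 and 5.98 in cat2. Its genotypes overlapped, and its log2 fold changes of -0.40 ± 0.28 in cat2 rbohF and -0.58 ± 0.28 in cat2 rbohD did not pass (limma adjusted p = 0.368 and 0.507). Replicate 2 of cat2 rbohF and replicates 1 and 2 of cat2 rbohD were below the filter value.

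Of 4 genes tested on the list of lignin polymerisation, AT4G33420, entered there as peroxidase PRX47, fell by 1.10 ± 0.21 (SE) on the log2 scale in cat2 rbohF (limma adjusted p = 0.00855). Its level was 5.01, 5.08 and 5.32 in cat2 rbohF, 5.48, 5.61 and 4.76 in cat2 rbohD, and 6.0, 6.36 and 6.34 in cat2. Both double mutants lay under cat2, though cat2 rbohD did not pass (-0.95, limma adjusted p = 0.134), and its replicate 3 was the lowest of all arrays. PRX52, a peroxidase of stem lignin, was at -0.50 in cat2 rbohF and -0.62 in cat2 rbohD and did not pass, except in cat2 rbohF without replicate 1 of cat2 (limma adjusted p = 0.0281). PRX71 was at 0.01 and -0.30, and AT5G51890 at 0.27 and -0.19, and neither passed. Between the double mutants AT5G51890 was at 0.46 in cat2 rbohF and did not pass (limma adjusted p = 0.0517). It passed there with the stricter filter and with an intensity trend (limma adjusted p = 0.0396 and 0.0473).

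Among genes that draw on the same precursors, REF1 (ALDH2C4), the dehydrogenase that oxidises coniferaldehyde and sinapaldehyde to acids, fell by 0.74 ± 0.11 (SE) on the log2 scale in cat2 rbohF (limma adjusted p = 0.00343). Its level was 9.89, 10.18 and 9.79 in cat2 rbohF, 10.40, 10.60 and 10.47 in cat2 rbohD, and 10.63, 10.80 and 10.66 in cat2. In cat2 rbohD it lay under cat2 without overlap and did not pass (-0.21, limma adjusted p = 0.555). In the fit reported here, REF1 was the only one of the 21 that passed between the double mutants. It was at -0.54 in cat2 rbohF against cat2 rbohD (limma adjusted p = 0.0467). Of the 9 arrays, leaving out any but replicate 3 of cat2 rbohD or replicate 2 of cat2 rbohF ended that call (limma adjusted p up to 0.194), as did no filter (0.0560) and a fit of the double mutants alone (0.0992). AT3G13610 (F6'H1), the feruloyl-CoA hydroxylase of scopoletin synthesis, fell by 1.33 ± 0.24 in cat2 rbohF (limma adjusted p = 0.00801). Its level was 8.16, 8.80 and 8.57 in cat2 rbohF, 9.43, 9.89 and 8.85 in cat2 rbohD, and 9.65, 9.94 and 9.92 in cat2. In cat2 rbohD it overlapped cat2 and did not pass (-0.44, limma adjusted p = 0.568). Between the double mutants AT3G13610 was at -0.88 in cat2 rbohF and did not pass (limma adjusted p = 0.0808). It passed there under weighting of the arrays and without replicate 3 of cat2 rbohD (limma adjusted p = 0.0386 and 0.0154). Without that array AT1G75280 also passed as lower (limma adjusted p = 0.0451).

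Both flavonoid genes tested rose in cat2 rbohF. DFR, the reductase of anthocyanin synthesis, rose by 1.27 ± 0.38 (SE) on the log2 scale (limma adjusted p = 0.0480), with overlapping groups. UF3GT, an anthocyanin glycosyltransferase, rose by 0.84 ± 0.23 (limma adjusted p = 0.0363). Among single arrays left out, only replicate 3 of cat2 and replicate 3 of cat2 rbohD kept the call of DFR (limma adjusted p otherwise up to 0.152). It also lost the call without a filter, in a robust fit and with the cat2 rbohF and cat2 arrays fitted alone (limma adjusted p = 0.0673, 0.0503 and 0.0616). For UF3GT the call ended without replicate 1 or 2 of cat2, or replicate 1 or 3 of cat2 rbohF (up to 0.127), and without a filter (0.0505). In cat2 rbohD the values were 0.68 and 0.64 and did not pass (limma adjusted p = 0.570 and 0.356).

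**Figure D4:**
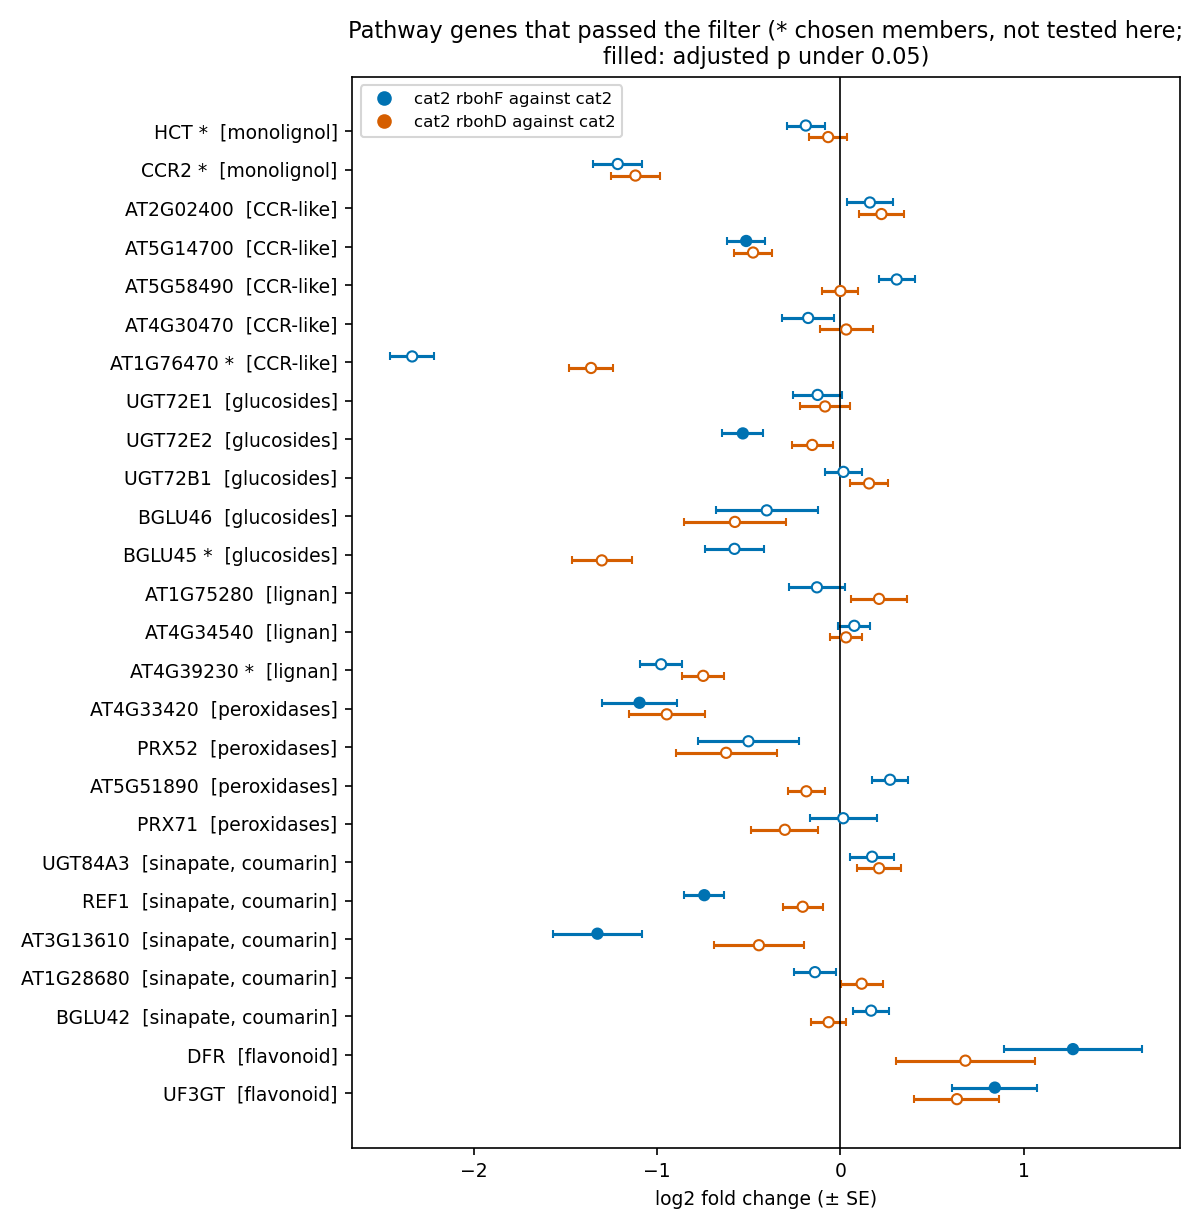
Log2 fold changes against cat2 (± SE) of the 26 pathway genes that passed the filter, in cat2 rbohF and in cat2 rbohD; asterisks mark the 5 chosen probe sets, drawn open, and filled points passed a limma adjusted p under 0.05. The 7 filled points are all in cat2 rbohF, 5 below zero and 2, DFR and UF3GT, above it.

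Genes near the 5 on the chromosome were also read. By gene order in the RefSeq table, 9 protein-coding genes close to the 5 had a named probe set and 8 were tested. Their log2 fold changes ran from -0.40 to 0.34 in cat2 rbohF and from -0.58 to 0.34 in cat2 rbohD, with BGLU46 lowest in both. With limma 0 of the 8 passed as lower in either double mutant, where 9.89% of all tested probe sets did in cat2 rbohF and 0.187% in cat2 rbohD, so the count is near the background. In cat2 rbohD 10.8% of all tested probe sets had an unadjusted p under 0.05, in either direction. Among the neighbours AT1G80810 near CCR2 was lower there (-0.29 on the log2 scale, limma unadjusted p = 0.0419). AT1G76460 near AT1G76470 was higher (0.34, limma unadjusted p = 0.0458). LPA66, named for low photosystem II accumulation and near HCT, rose in cat2 rbohF by 0.34 ± 0.10 (SE) (limma adjusted p = 0.0444). That call ended without any 1 of 6 arrays (limma adjusted p up to 0.142), these being all 3 of cat2 rbohF, replicate 1 of cat2 rbohD and replicates 1 and 2 of cat2. It also ended without a filter and with the cat2 rbohF and cat2 arrays fitted alone (limma adjusted p = 0.0537 and 0.0505).

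Likeness was measured by Pearson correlation over the 9 arrays with 7434 other named probe sets. CCR2 was most like AT3G09000 (0.98), with mean levels of 6.18 in cat2 rbohF, 6.23 in cat2 rbohD and 6.66 in cat2. AT1G76470 was most like AT4G19370 (0.98), with means of 5.11 in cat2 rbohF, 6.0 in cat2 rbohD and 6.94 in cat2. Both patterns run down from cat2 as in the gene they resemble. BGLU45 was most like AT3G55520 (0.92) and then CML38, a calmodulin-like gene (0.90), which had means of 8.08 in cat2 rbohF, 7.79 in cat2 rbohD and 8.59 in cat2.

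AT4G39230 was most like AT5G16230 (0.98), and AT2G39210 was among the 5 probe sets most like both AT4G39230 (0.97) and AT1G76470 (0.96). HCT was most like AT5G20170 (0.98). With genotype means removed the correlation was 0.98 for HCT with AT5G20170, but 0.15 for AT1G76470 with AT4G19370, whose likeness lay in the genotype means. It was 0.80 for CCR2 with AT3G09000, 0.72 for BGLU45 with AT3G55520 and 0.87 for AT4G39230 with AT5G16230. All are descriptions over the same 9 arrays.

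Markers of other cell types were mostly unnamed, with 3 of 28 loci measured. None of 7 markers of xylem and secondary wall, where most lignin is laid down, and none of 4 mesophyll markers was among them, so leaf identity and vascular content were not checked. The root marker PYK10 rose in cat2 rbohF by 1.35 ± 0.25 (SE) on the log2 scale (limma adjusted p = 0.00836) and was at 0.39 in cat2 rbohD (limma adjusted p = 0.629). The senescence marker SAG29 rose in cat2 rbohF by 1.59 ± 0.42 (limma adjusted p = 0.0326) and was at 0.64 in cat2 rbohD (limma adjusted p = 0.634). Its call ended without any of the 3 cat2 arrays, or without replicate 1 or 3 of cat2 rbohF (limma adjusted p up to 0.113). The guard cell marker FMA was at 0.15 and -0.26 and did not pass (limma adjusted p = 0.299 and 0.344). As a sign of RNA quality, the 3-prime minus 5-prime log2 signal of one GAPDH control was 0.91 ± 0.07 in cat2 rbohF, 0.86 ± 0.08 in cat2 rbohD and 0.75 ± 0.06 in cat2 (SD, n = 3). A second GAPDH control ran the other way, at -0.22 ± 0.05 in cat2 rbohF, -0.13 ± 0.05 in cat2 rbohD and -0.03 ± 0.11 in cat2. The part of these in the low values of the 5 genes was not tested.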

How the data were processed

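Leaf RNA of 9 samples, 3 per genotype, was measured on 1 Affymetrix array each, from 5 ug of total RNA per the labels' protocols. The authors deposited a log2 expression value for each probe set. The submitters' processing notes name GCRMA, whose version the sources used here do not give. Array medians lay between 6.05 and 6.12, so these values are relative, and a shift common to most transcripts cannot be read from them. The number of arrays limits the precision.

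From these values, 64 control probe sets were left out and the filter on dim probe sets was applied. All 9 arrays were fitted together with limma 3.58.1 in R 4.3.3 (1 mean per genotype, 6 residual degrees of freedom, lmFit and eBayes, two-sided), and p-values were adjusted by Benjamini-Hochberg over the 13888 probe sets of each comparison. The annotation gives 13513 probe sets 1 gene, 503 several and 8730 none; 13436 were matched in the TAIR10.1 RefSeq table. The fit was tested on simulated data.

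The 5 genes, the lists and the tests were chosen with earlier results of these data known. The rule named, besides the 5, the called genes of each list (up to 6), otherwise the 2 with the smallest p, and the 5 probe sets most like each gene; other list members and the neighbours were added after their values were seen. Deviations of same-numbered replicates correlated weakly, at 0.14, 0.15 and 0.17, between cat2 rbohF and cat2. Different-numbered replicates were not set beside these values, so pairing was not tested, and the reported fit does not use it. The values for cat2 rbohD with cat2 (-0.24, 0.01 and 0.16) and cat2 rbohF with cat2 rbohD (-0.11, 0.25 and 0.15) differed in sign. None of these values shows pairing. Alternatives were other filters, median centring, a variance trend, a robust fit, weighted arrays, the compared arrays alone, a replicate block and leaving out each array.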

Additional observations from a re-analysis of the deposited data

How the results depend on the processing

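Under every alternative that could be fitted, the log2 fold changes of the 5 genes stayed within 1 SD of their replicates of the reported value; HCT in cat2 rbohD, which passed nowhere, was at 0.01 without replicate 2 of cat2 rbohD. The stricter filter left out CCR2, BGLU45 and AT4G39230. Counts moved with the processing. With the stricter filter, and fewer probe sets tested, 12 probe sets were called in cat2 rbohD against cat2 and 455 in cat2 rbohF against cat2 rbohD, and 4 pathway genes in cat2 rbohF against cat2 and 2 between the double mutants. Without a filter 164 probe sets and 0 pathway genes were called between the double mutants. Array weights gave 18 in cat2 rbohD against cat2, and 703 probe sets and 2 pathway genes between the double mutants, where an intensity trend also gave 2 pathway genes. With only the 6 arrays compared, and fewer samples in the fit, 15 were called in cat2 rbohD against cat2, and 2 probe sets and 0 pathway genes between the double mutants. The replicate block, for which pairing was not tested, gave 54 in cat2 rbohD against cat2. In cat2 rbohF against cat2 it changed the calls of BGLU45 and AT5G58490 and no other among the genes described.

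Leaving out 1 array at a time gave 817 to 2704 probe sets (2273 with all arrays) and 3 to 7 pathway genes in cat2 rbohF against cat2. The counts that moved by over 1.5 times were 817 and 1099 without replicates 1 and 3 of cat2 rbohF, and 1080 and 1404 without replicates 2 and 3 of cat2. In cat2 rbohD against cat2 it gave 7 to 35 (29 with all arrays) and 0 pathway genes each time, with 7 when replicate 2 or 3 of cat2 or replicate 1 of cat2 rbohD was left out. Between the double mutants it gave 1 to 1065 (267 with all arrays) and 0 to 3 pathway genes (1 with all arrays), with 1065 without replicate 3 of cat2 rbohD, 1, 8, 4 and 3 without cat2 rbohF replicates 1 and 3 and cat2 rbohD replicates 1 and 2, and 39, 107 and 74 without cat2 replicates 1, 2 and 3. Where the construction of an alternative does not show it, the cause was not tested.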
